A study of Mus musculus with 6 samples.

Results

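The cyclic nucleotide signalling genes comprised 69 of the 20295 genes in the count table. They were matched by gene symbol, in a choice made with earlier results of these data known. Among them were 10 adenylyl cyclases, 9 guanylyl cyclase subunits or receptors, 3 natriuretic peptide receptors and 25 genes named as phosphodiesterases. The others were 6 subunits of protein kinase A (PKA), 2 cGMP-dependent kinases (PKG) and 14 kinase anchoring proteins. All 69 were measured by RNA sequencing of primary adipocytes. The cells were grown from the stromal-vascular fraction of brown (BAT), inguinal white (iWAT) and epididymal white (eWAT) fat and differentiated in the dish, with 2 libraries per depot. All donors were NMRI males, 4 to 5 weeks old, and interscapular, cervical and axillary brown fat was pooled for the BAT cultures. The medium of every group held newborn calf serum (10%), insulin (30 nM) and rosiglitazone (1 µM), an agonist of the adipogenic receptor Pparg. By the labels, harvest came 8 days after plating, though the library names carry a day 7 tag. Cultures entered the study only with more than 50% differentiated cells, so each group may hold undifferentiated cells beside adipocytes. The labels list no adrenergic agonist or other agent that raises cyclic AMP, and no genotype. Nor do they say whether a depot's replicates are separate animals or cultures, so a p-value here reflects the spread of these samples alone, which may be technical.

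Cyclic AMP is made by adenylyl cyclases under the control of G proteins, and cyclic GMP by guanylyl cyclases that respond to nitric oxide or to natriuretic peptides. Phosphodiesterases hydrolyse both messengers, and PKA and PKG carry their signal to substrates, with anchoring proteins holding PKA at particular places in the cell. In adipocytes PKA phosphorylates hormone-sensitive lipase and perilipin and so starts lipolysis, insulin opposes this partly through the phosphodiesterase Pde3b, and in brown fat the same cascade drives heat production through Ucp1.

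Library totals lay between 2889038 and 4807449 counts. Values are counts scaled to a common library total with trimmed-mean factors (CPM), replicate 1 before replicate 2. The depot labels held in the data: Ucp1, the uncoupling protein of brown fat, had 4924 and 9294 CPM in BAT, 1114 and 995 CPM in iWAT, and 59.6 and 62.9 CPM in eWAT. The adipocyte fatty acid binding protein gene Fabp4 had at least 15887 CPM in every library, and no gene of the adipocyte marker list passed the test in any comparison. Summed CPM of the 12 measured macrophage markers was 424 and 90.6 in BAT, 611 and 174 in iWAT, and 4643 and 1956 in eWAT, with none of them at 0 in all libraries. Summed CPM of the 10 preadipocyte and fibroblast markers was 647 and 501 in BAT, 3709.5 and 4116 in iWAT, and 3247 and 3785 in eWAT, again with none at 0 in all libraries. Of the 9 of these tested, 5 fell in BAT in both comparisons (Pdgfra, Dpt, Dcn, Lum and Ly6a), and Thy1 rose in BAT relative to eWAT. Those sums stood apart between BAT and both white fats, and their part in every BAT difference given here was not tested. In bulk RNA, fewer cells of a type and less RNA per cell cannot be told apart.

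Of the 69 genes, 46 passed the filter on low counts and were tested, which is 66.7%, against 57.8% of all genes. Calls rest on the edgeR quasi-likelihood test at an adjusted p below 0.05, with the Benjamini-Hochberg adjustment over all 11732 genes tested. In BAT against eWAT, 1 of the 46 was called higher, the phosphodiesterase gene Pde4d, where 2.71% of all tested genes were. A further 2 were called lower, the adenylyl cyclase genes Adcy5 and Adcy7, where 3.75% of all tested genes were, so neither share stood clear of the background. The log2 differences of the 46 ran from -1.80 to 2.56 with a median of 0.15, against a median of -0.03 over all tested genes, and 36 of the 46 lay within 1 log2 unit of 0, as did 81.7% of all tested genes.

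In BAT against iWAT, edgeR called 0 members higher and 0 lower, where 0.145% and 0.895% of all tested genes were. At an unadjusted p below 0.05 there were 6 higher, against 7.88% of all tested genes, and 3 lower, against 8.75%. DESeq2, run on the same genes, called Npr3 and Pde4d higher, 2 of 46 where the background was 1.53%, and Adcy5 and Gucy1a3 lower, 2 of 46 where it was 2.82%. The median log2 difference was 0.09 for the 46 and -0.02 for all tested genes. In iWAT against eWAT, edgeR called 0 members in either direction, as it did for all genes (0% and 0%). Unadjusted, 3 members were higher, against 3.9% of all tested genes, and 2 lower, against 5.44%. DESeq2 called Gucy1a3 and Prkg2 higher in iWAT than in eWAT, 2 of 46 against 0.963% of all tested genes, and Adcy7 lower, 1 of 46 against 1.6%. The medians were 0.02 for the members and 0.01 for all tested genes. The 3 comparisons share libraries, and none of them is independent of the others.

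**Figure D1:**
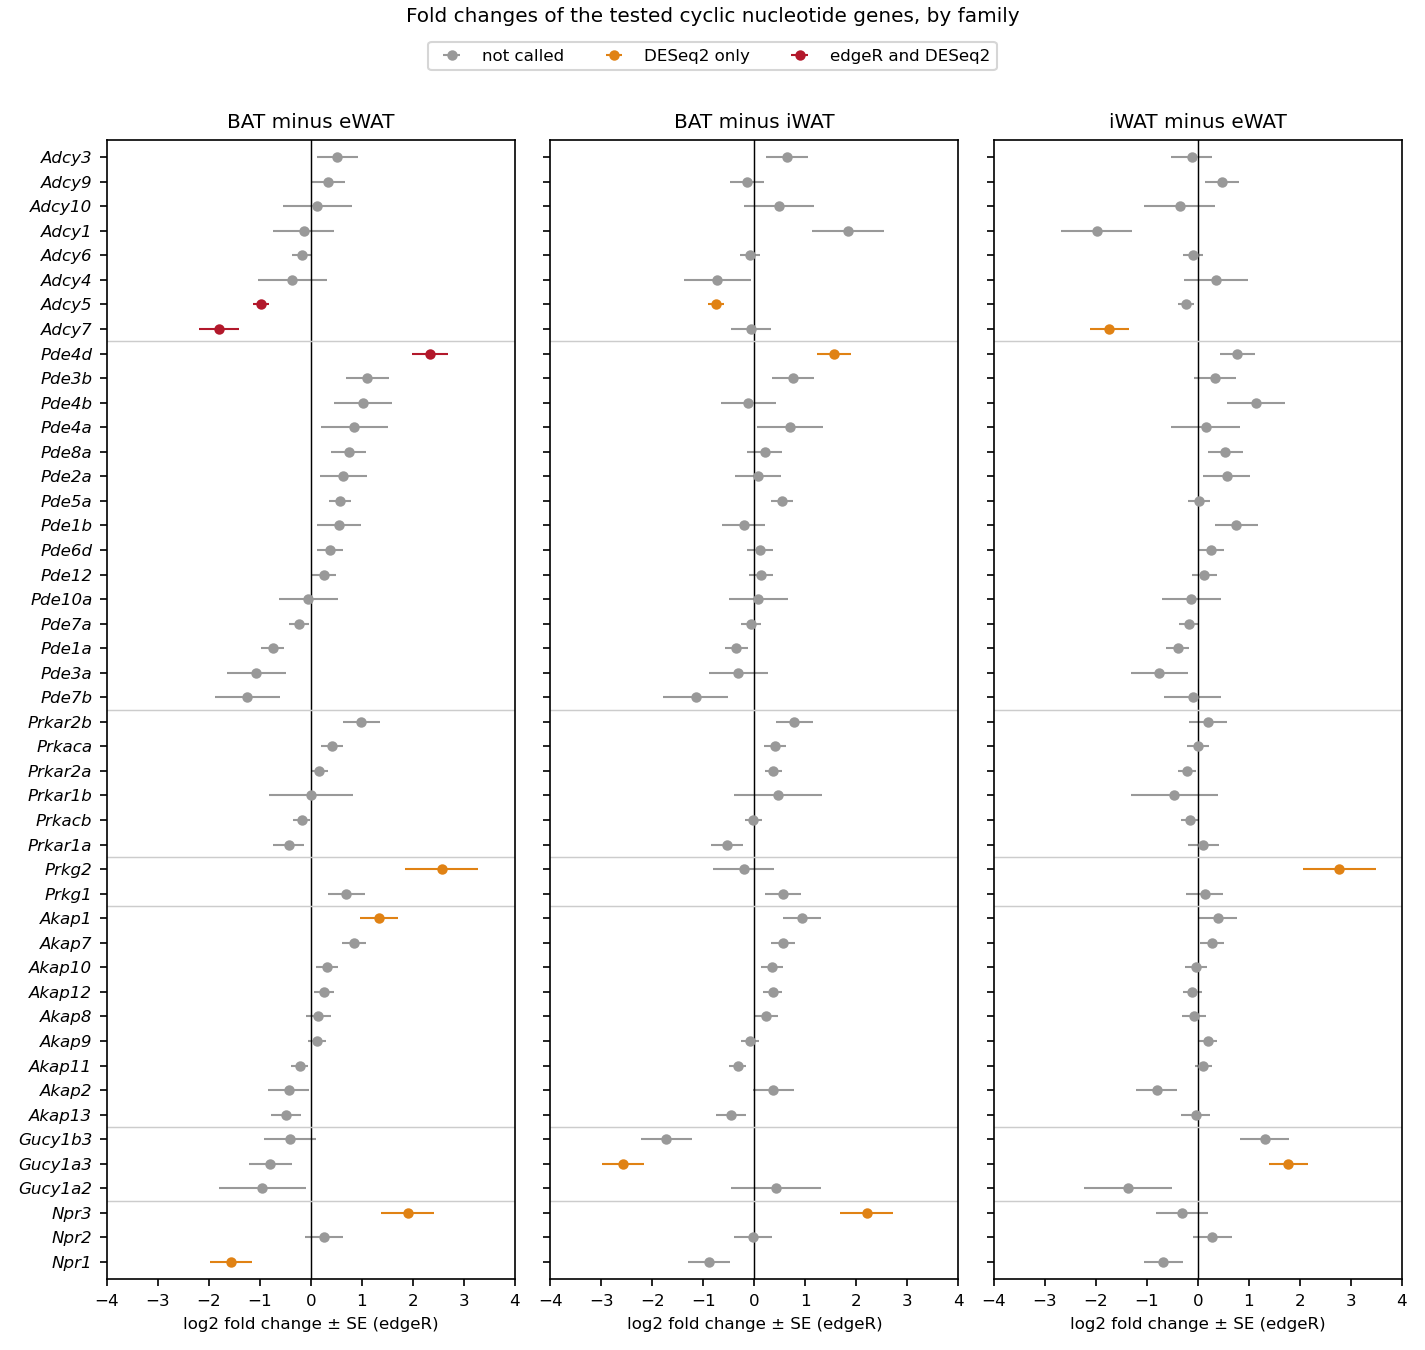
Log2 difference of each of the 46 tested genes (x axis) in the comparisons of BAT with eWAT, BAT with iWAT and iWAT with eWAT, with bars of 1 standard error and genes grouped by family down the page. Red points are genes called by edgeR and DESeq2, which are Pde4d, Adcy5 and Adcy7 in BAT against eWAT; orange points are genes called by DESeq2 and not by edgeR, and grey points are not called.

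Among the membrane receptors, the natriuretic peptide receptors Npr1 and Npr3 lay on opposite sides. Npr3 encodes the clearance receptor, which binds natriuretic peptides and removes them without making cyclic GMP. Its level was 724 and 528 CPM in BAT, 164 and 108 CPM in iWAT, and 251 and 84.8 CPM in eWAT. Both BAT libraries lay above all 4 white fat libraries, while the iWAT and eWAT libraries overlapped. The log2 difference of BAT minus eWAT was 1.90 ± 0.52 (SE; edgeR adjusted p = 0.081) and that of BAT minus iWAT was 2.21 ± 0.52 (adjusted p = 0.13), neither past the threshold. DESeq2 called both, with adjusted p of 0.0025 for BAT minus eWAT and 0.00063 for BAT minus iWAT. Between its libraries, replicate 2 minus replicate 1 was -0.45 log2 units in BAT, -0.60 in iWAT and -1.56 in eWAT, so the eWAT level was the least certain.

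Npr1 encodes the receptor guanylyl cyclase for atrial and brain natriuretic peptide. It had 4.02 and 6.88 CPM in BAT, 8.42 and 11.3 CPM in iWAT, and 12.6 and 19.1 CPM in eWAT, so that the depots did not overlap and BAT was lowest, as was the preadipocyte and fibroblast marker sum. The difference of BAT minus eWAT was -1.57 ± 0.41 (edgeR adjusted p = 0.073; DESeq2 adjusted p = 0.047), and that of BAT minus iWAT was -0.89 ± 0.41 (edgeR adjusted p = 0.35). Set against each other per kilobase of counted transcript, Npr3 was 112 and 47.7 times the level of Npr1 in BAT, 12.1 and 5.91 times in iWAT, and 12.4 and 2.76 times in eWAT. This ratio of the clearance to the signalling receptor was higher in both BAT libraries than in any white fat library. Npr2, the receptor for C-type natriuretic peptide, had overlapping levels of 13.9 and 25.6 CPM in BAT, 15.4 and 24.4 CPM in iWAT, and 16.1 and 16.5 CPM in eWAT. The peptide genes Nppa, Nppb and Nppc had too few counts to be tested.

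**Figure D2:**
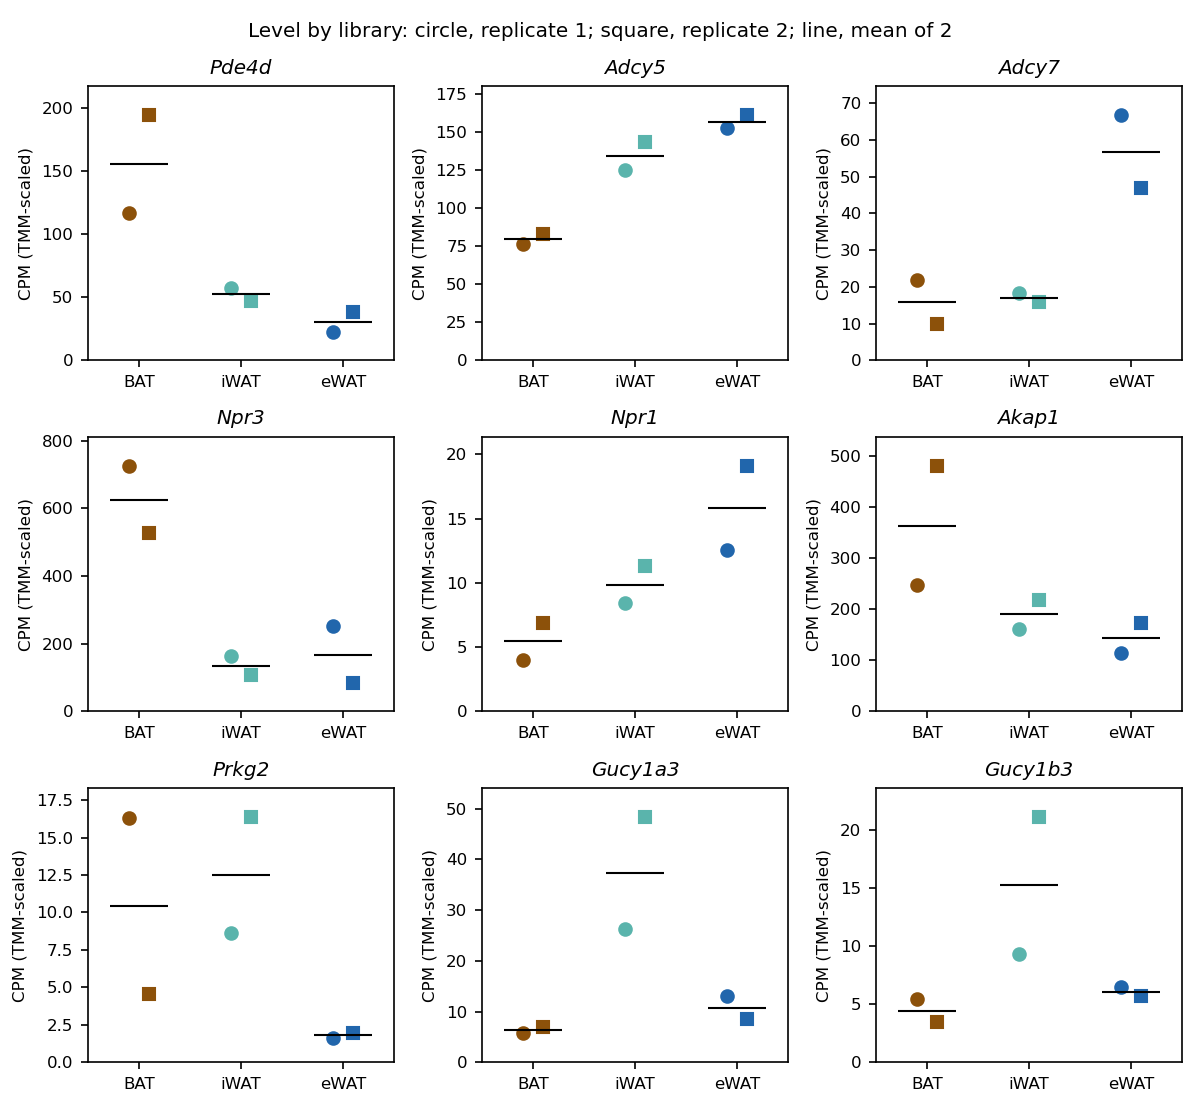
CPM of 9 members in each library (y axis, linear from 0), with BAT left of iWAT and eWAT; circles are replicate 1, squares replicate 2 and lines the mean of a depot. Pde4d and Npr3 are highest in both BAT libraries, Adcy5 and Npr1 lowest there, and Gucy1a3 and Gucy1b3 highest in both iWAT libraries.

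The intracellular nitric oxide receptor, soluble guanylyl cyclase, is a dimer of an alpha and a beta subunit. The alpha 1 gene Gucy1a3 had 5.71 and 6.88 CPM in BAT, 26.2 and 48.3 CPM in iWAT, and 13.05 and 8.53 CPM in eWAT. The beta 1 gene Gucy1b3 had 5.49 and 3.44 CPM in BAT, 9.38 and 21.1 CPM in iWAT, and 6.52 and 5.69 CPM in eWAT. Both genes had the 2 iWAT libraries on top and the 2 BAT libraries at the bottom, with no overlap between depots; the preadipocyte and fibroblast sum was likewise lowest in BAT. For Gucy1a3 the difference of BAT minus iWAT was -2.57 ± 0.41 (edgeR adjusted p = 0.054; DESeq2 adjusted p = 6.19e-05) and that of iWAT minus eWAT was 1.78 ± 0.38 (edgeR adjusted p = 0.18; DESeq2 adjusted p = 0.018). For Gucy1b3 the same differences were -1.72 ± 0.49 (edgeR adjusted p = 0.17) and 1.31 ± 0.48 (edgeR adjusted p = 0.43), and DESeq2 called neither. BAT minus eWAT was -0.80 ± 0.42 for Gucy1a3 and -0.41 ± 0.51 for Gucy1b3 (edgeR adjusted p = 0.29 and 0.66).

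The pair are neighbours in the genome. In mm9 Gucy1a3 (NM_021896) spans 81896349 to 81949799 on chromosome 3 and Gucy1b3 (NM_017469) spans 81835926 to 81878633. They lie on the same (minus) strand, 17715 bases apart, with 0 other genes of the count table between them. The 250 bases upstream of their RefSeq starts (genome build GRCm38.p6, minus strand, 5′ to 3′) are shown because these subunit genes had the same order of depots; RefSeq now calls them Gucy1a1 and Gucy1b1. Capitals mark TGACG, the core of the cyclic AMP response element, on either strand (CGTCA where it reads on the other strand). The windows are chr3:82145651-82145900 for Gucy1a3 and chr3:82074712-82074961 for Gucy1b3.
Gucy1a3: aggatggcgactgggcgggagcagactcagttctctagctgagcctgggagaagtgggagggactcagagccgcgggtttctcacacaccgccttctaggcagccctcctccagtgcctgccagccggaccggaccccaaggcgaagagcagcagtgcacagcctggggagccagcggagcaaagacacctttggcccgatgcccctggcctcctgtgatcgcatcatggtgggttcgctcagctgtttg
Gucy1b3: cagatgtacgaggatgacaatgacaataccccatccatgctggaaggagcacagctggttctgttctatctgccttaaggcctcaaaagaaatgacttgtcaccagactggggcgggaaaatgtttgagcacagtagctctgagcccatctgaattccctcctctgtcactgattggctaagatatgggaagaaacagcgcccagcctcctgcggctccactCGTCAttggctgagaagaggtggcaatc
The core occurs once in the Gucy1b3 window and not in that of Gucy1a3. Another RefSeq start of Gucy1a3, with the window chr3:82145074-82145323 (not shown), does not hold the core either. The core is a common word, found on either strand in 17.8% of 32851 RefSeq promoter windows of this length. It was in 20 of the 106 windows of the members, which covered 57 of the 69 genes. Counted by gene, it was found for 29.8% of those members and 19.8% of all genes, a share that rises with the windows a gene has.

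Gucy1a2, the alpha 2 subunit, had 22.6 and 8.41 CPM in BAT, 18.8 and 5.03 CPM in iWAT, and 49.6 and 11.7 CPM in eWAT, with replicate 1 above replicate 2 each time. Summed CPM of the 10 smooth muscle and pericyte markers, 2128 and 417 in BAT, 1219 and 572 in iWAT, and 1589 and 860.1 in eWAT, was also higher in replicate 1 of every depot. Acta2 and Tagln were the largest terms in replicate 1 of BAT, with 898 and 747 CPM. Others went the other way, with Cspg4 higher in replicate 2 of BAT. Des, Rgs5 and Mcam were higher in replicate 2 of iWAT, and Myh11, Rgs5 and Mcam in that of eWAT. The macrophage sum given above was likewise higher in replicate 1 of every depot. So were 9 of the 46 tested members, Gucy1a2 and Npr3 among them, and 23.4% of all tested genes. None of the smooth muscle and pericyte markers was at 0 in all libraries. The part of either cell type in the Gucy1a2 values was not tested. The remaining 6 guanylyl cyclase members, among them the gut peptide receptor Gucy2c and the retinal cyclase Gucy2f, had from 1 to 8 counts in all 6 libraries together and were not tested.

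Among the adenylyl cyclases, 2 of 8 tested genes fell in BAT relative to eWAT, where 3.75% of all tested genes did; with so few genes this count was not read as a property of the family. Adcy5, one of the pair of calcium-inhibited cyclases, had 76.5 and 82.6 CPM in BAT, 125 and 143 CPM in iWAT, and 152 and 161 CPM in eWAT. The depots did not overlap and the replicates lay close together, BAT being lowest and eWAT highest. The preadipocyte and fibroblast marker sum was also lowest in BAT. Its BAT minus eWAT difference was -0.98 ± 0.16 (edgeR adjusted p = 0.031), while BAT minus iWAT was -0.75 ± 0.16 (edgeR adjusted p = 0.12; DESeq2 adjusted p = 0.034). The call against eWAT was lost when any 1 of the 6 libraries was left out and when only the BAT and eWAT libraries were fitted, with differences between -1.04 and -0.91. Its structural relative Adcy6 had 119.8 and 138 CPM in BAT, 156 and 116 CPM in iWAT, and 143 and 149 CPM in eWAT, a BAT minus eWAT difference of -0.18 ± 0.20 (edgeR adjusted p = 0.62). Per kilobase, Adcy5 stood at 0.76 and 0.712 times Adcy6 in BAT, 0.952 and 1.47 times in iWAT, and 1.27 and 1.28 times in eWAT, lowest in both BAT libraries. Whether the effect on Adcy5 differs from that on Adcy6 was not tested.

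Adcy7, a cyclase known from blood and immune cells, had 21.8 and 9.94 CPM in BAT, 18.3 and 15.8 CPM in iWAT, and 66.6 and 46.9 CPM in eWAT. Both eWAT libraries lay above all others, and BAT and iWAT overlapped. The difference of BAT minus eWAT was -1.80 ± 0.38 (edgeR adjusted p = 0.047), and iWAT minus eWAT was -1.73 ± 0.38 (edgeR adjusted p = 0.18; DESeq2 adjusted p = 0.00997). The macrophage markers given above moved the same way, with 6 of the 12 tested called lower in BAT than in eWAT (median log2 difference -3.53), and their part in the Adcy7 difference was not tested. The call was lost with limma voom, with the BAT and eWAT libraries alone and on leaving out any library except replicate 1 of BAT, without which the difference was -2.50.

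**Figure D3:**
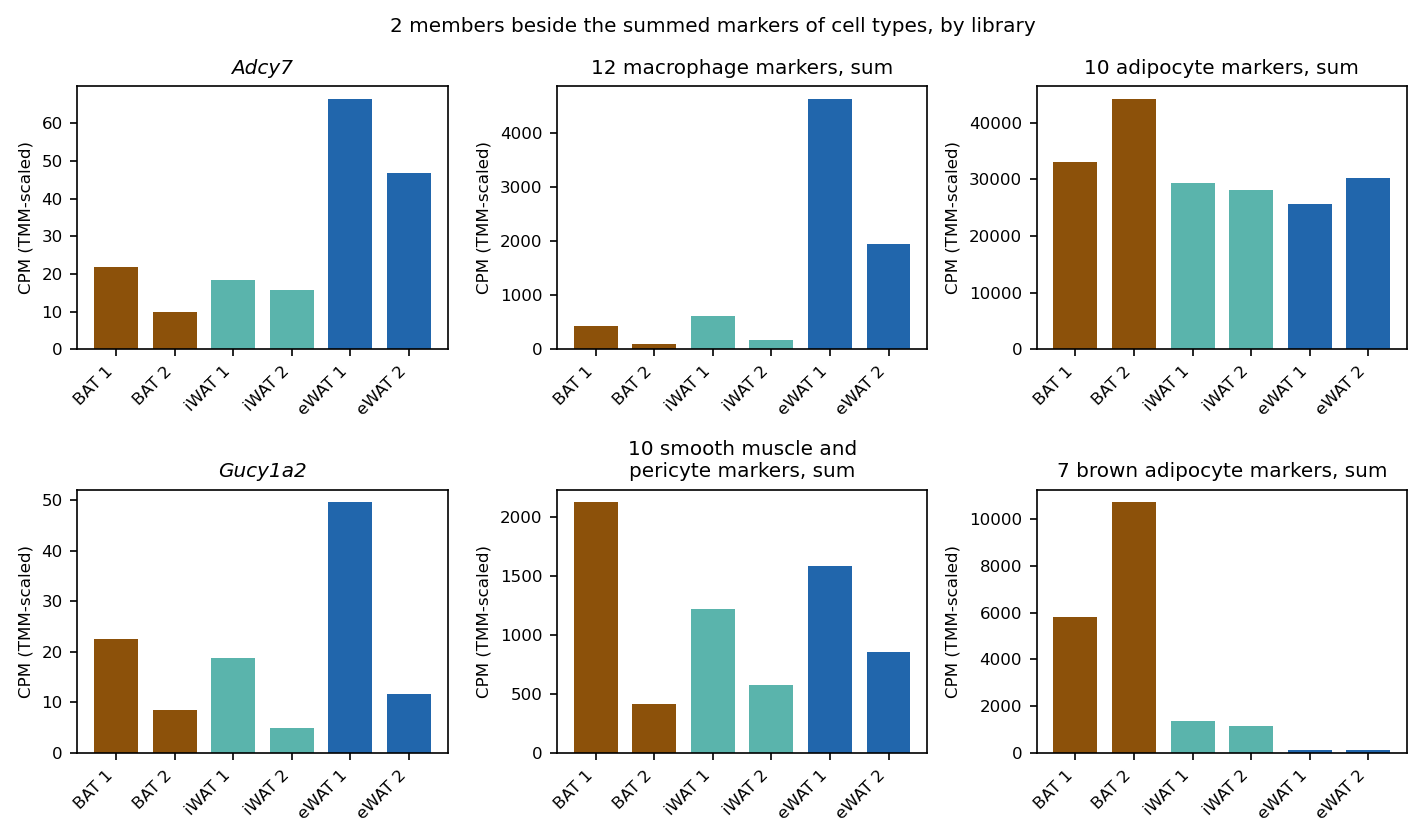
CPM per library (y axes, bars from 0) of Adcy7 and Gucy1a2 beside the summed CPM of the macrophage, adipocyte, smooth muscle and pericyte, and brown adipocyte markers, 1 bar per library with BAT left of iWAT and eWAT. Both eWAT libraries are highest in Adcy7 and in macrophage markers. Replicate 1 is the higher library of each depot in Gucy1a2, in the smooth muscle and pericyte sum and in the macrophage sum.

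The other tested cyclases were not called. Adcy3, a calmodulin-responsive cyclase, had 17.5 and 39.0 CPM in BAT, 16.4 and 19.4 CPM in iWAT, and 17.0 and 21.9 CPM in eWAT, so 1 BAT library alone stood above the white fat libraries. Its BAT minus eWAT difference was 0.52 ± 0.40 (edgeR adjusted p = 0.47) and was -0.15 without that library, replicate 2. The Adcy3 locus overlaps Cenpo on the opposite strand. Without strand in the counting, reads in any counted bases that both genes share could not be told apart. Adcy4 stayed at or below 5.28 CPM in every library, with a BAT minus eWAT difference of -0.37 ± 0.67 (edgeR adjusted p = 0.78) that was 0.08 without replicate 2 of BAT. Adcy9, Adcy1 and the bicarbonate-stimulated soluble cyclase Adcy10 ranged from 19.8 to 38.6 CPM, from 0.754 to 5.82 CPM and from 1.44 to 4.84 CPM over the 6 libraries. Adcy2, a calcium-insensitive cyclase, had too few counts for the filter: 20 and 4 in BAT, 9 and 9 in iWAT, and 0 and 0 in eWAT. Against a floor of 3 counts over the eWAT libraries, its pooled counts stood 8.50-fold higher in BAT and 5.76-fold higher in iWAT. That floor allows for the 0 in eWAT and not for the spread or counting error of BAT and iWAT. With no filter edgeR called it in both comparisons (adjusted p = 0.0035 and 0.022), and most of its BAT counts came from replicate 1. Adcy2 was picked from the untested members after these counts were seen, so that call adds no separate evidence. Adcy8 had 4 counts in all.

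Among the phosphodiesterases, Pde4d, which hydrolyses cyclic AMP alone, rose in BAT relative to eWAT. It had 117 and 194 CPM in BAT, 57.7 and 47.3 CPM in iWAT, and 22.8 and 38.7 CPM in eWAT. The depots did not overlap, with BAT highest and eWAT lowest. For BAT minus eWAT the difference was 2.34 ± 0.35 (edgeR adjusted p = 0.027; DESeq2 adjusted p = 6.09e-07), BAT minus iWAT was 1.56 ± 0.34 (edgeR adjusted p = 0.12; DESeq2 adjusted p = 0.0039) and iWAT minus eWAT was 0.78 ± 0.35 (edgeR adjusted p = 0.59). Of the 13 other ways of processing, 7 kept the call against eWAT; it was lost with the 2 depots alone and on leaving out either iWAT library, either eWAT library or replicate 2 of BAT, with differences between 1.93 and 2.77. Pde4d (NM_011056) lies on mm9 chromosome 13 from 109444371 to 110746177, plus strand. Its relative Pde4b had 28.1 and 10.7 CPM in BAT, 19.5 and 23.6 CPM in iWAT, and 5.82 and 13.9 CPM in eWAT, overlapping between all depots except iWAT and eWAT, with a BAT minus eWAT difference of 1.02 ± 0.57 (edgeR adjusted p = 0.32). Pde4a ranged from 1.42 to 8.03 CPM, and Pde4c had 6 counts in all.

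Pde3b, the insulin-regulated phosphodiesterase of adipocytes, was the most abundant gene of its family in every library. It had 967 and 1820.5 CPM in BAT, 750.3 and 893 CPM in iWAT, and 443 and 852 CPM in eWAT. The BAT libraries lay above all others, with replicate 2 far above replicate 1. The difference of BAT minus eWAT was 1.11 ± 0.42 (edgeR adjusted p = 0.16) and BAT minus iWAT was 0.76 ± 0.41 (edgeR adjusted p = 0.41). Per kilobase it took 64.6% and 76.4% of all phosphodiesterase signal in BAT, 62.2% and 66.8% in iWAT, and 52.1% and 68.6% in eWAT, shares that overlap between depots. Pde4d took 5.87% and 6.12% in BAT, 3.59% and 2.65% in iWAT, and 2.01% and 2.33% in eWAT, shares that do not. Both sets of shares are of all 25 genes named as phosphodiesterases, Pde6d and Pde12 included.

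**Figure D4:**
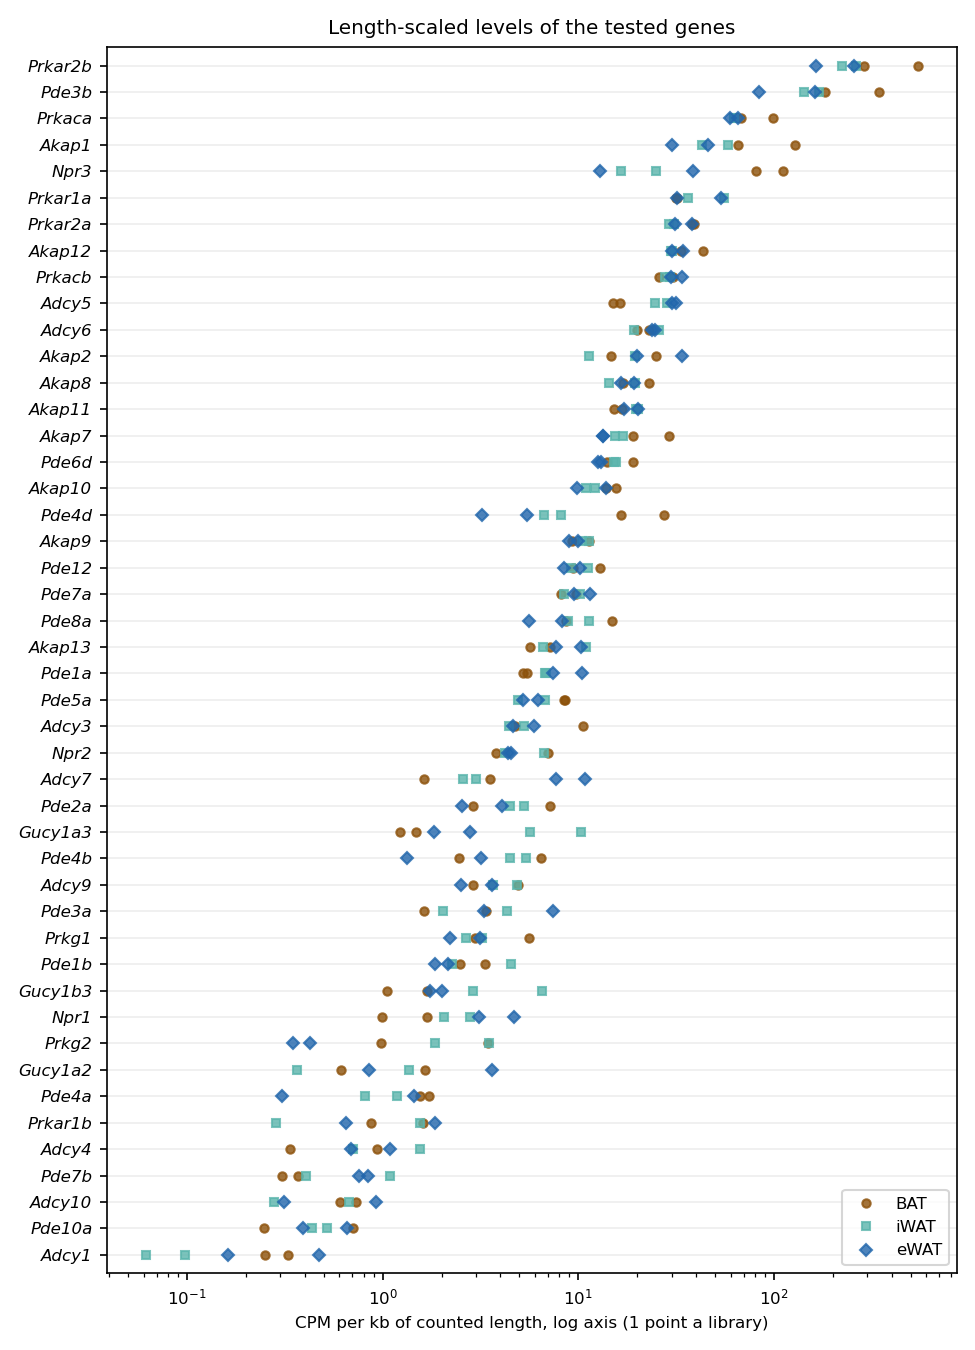
CPM per kilobase of counted transcript (x axis, log scale) for the 46 tested members, 1 point per library, with circles for BAT, squares for iWAT and diamonds for eWAT. Within every library Prkar2b was the highest and Pde3b the next.

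Pde5a, which hydrolyses cyclic GMP, had 56.2 and 57.0 CPM in BAT, 33.0 and 45 CPM in iWAT, and 34.7 and 41.5 CPM in eWAT. Both BAT libraries were above all white fat libraries, with a BAT minus eWAT difference of 0.57 ± 0.21 (edgeR adjusted p = 0.16). Pde10a, which acts on both messengers, lay between 1.91 and 5.49 CPM with all depots overlapping; its BAT minus eWAT difference was -0.05 ± 0.59 (edgeR adjusted p = 0.97), and was 0.44 without replicate 2 of BAT and 0.37 without replicate 2 of eWAT. The calcium-calmodulin phosphodiesterase Pde1a had 24.5 and 23.3 CPM in BAT, 30.5 and 30.7 CPM in iWAT, and 46.8 and 33.6 CPM in eWAT, ordered without overlap but called by neither edgeR nor DESeq2. The other tested members were Pde1b, Pde2a, Pde3a, Pde7a, Pde7b and Pde8a, all without a call, at 1.27 to 72.0 CPM. Pde6d, a carrier of prenylated proteins, and Pde12, a mitochondrial deadenylase, bear the phosphodiesterase name without hydrolysing cyclic nucleotides; they ranged from 13.7 to 20.7 CPM and from 29.3 to 44.7 CPM. The untested phosphodiesterases were Pde1c, Pde4c, Pde8b, Pde9a, Pde11a and the photoreceptor genes Pde6a, Pde6b, Pde6c, Pde6g and Pde6h, with 1 to 47 counts over all libraries.

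The PKA holoenzyme joins a regulatory subunit dimer with catalytic subunits, and its RII beta regulatory subunit, Prkar2b, is the form characteristic of fat. Prkar2b had 969.6 and 1837 CPM in BAT, 748 and 878 CPM in iWAT, and 553 and 859 CPM in eWAT. As for Pde3b, the BAT libraries were on top but far apart. The BAT minus eWAT difference was 0.99 ± 0.37 (edgeR adjusted p = 0.16) and BAT minus iWAT was 0.79 ± 0.37 (edgeR adjusted p = 0.35). Per kilobase, Prkar2b took 80.2% and 88.4% of the 4 regulatory subunit genes in BAT, 71.7% and 79.9% in iWAT, and 65.5% and 78.4% in eWAT. The lower BAT share was just above the highest white fat share, and no test of it was run, since 2 libraries against 2 allow no exact permutation p under 0.333.

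The level of Pde3b per kilobase was from 0.509 to 0.646 times that of Prkar2b in all 6 libraries. Over 5 of these libraries, all but replicate 1 of eWAT, the ratio lay between 0.63 and 0.646, so the 2 genes kept nearly the same proportion while both were far higher in replicate 2 of BAT than elsewhere. Their depot differences carry no test of this proportion.

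Prkar1a, the type I alpha regulatory subunit, had 104 and 106 CPM in BAT, 185 and 121 CPM in iWAT, and 178 and 106 CPM in eWAT. BAT was lowest, and replicate 2 of eWAT was within 1 CPM of the higher BAT library. Its BAT minus eWAT difference was -0.43 ± 0.31 (edgeR adjusted p = 0.43). Its promoter region is shown because it is the one among the members' windows to hold the full cyclic AMP response element, TGACGTCA, to which the PKA substrate CREB binds. The window is chr11:109650699-109650948 (GRCm38.p6, plus strand, RefSeq, 5′ to 3′), with the full element and a further TGACG core in capitals. Prkar1a has other RefSeq windows, not shown, and some of them hold the TGACG core.
Prkar1a: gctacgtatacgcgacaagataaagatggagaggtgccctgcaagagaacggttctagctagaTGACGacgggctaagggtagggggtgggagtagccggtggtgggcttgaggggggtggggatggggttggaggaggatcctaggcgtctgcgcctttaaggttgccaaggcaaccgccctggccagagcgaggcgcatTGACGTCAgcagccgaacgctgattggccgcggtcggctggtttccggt
TGACGTCA occurred in 1 of 106 member windows and in 1.55% of the 32851 windows of all genes. A match in a window is a description of its letters.

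Prkar2a, the type II alpha subunit, had 155 and 158 CPM in BAT, 124 and 117 CPM in iWAT, and 126 and 153 CPM in eWAT, and BAT minus eWAT was 0.16 ± 0.17 (edgeR adjusted p = 0.60). The catalytic subunit gene Prkaca had 156 and 226 CPM in BAT, 143 and 143 CPM in iWAT, and 136 and 150.5 CPM in eWAT, with a BAT minus eWAT difference of 0.41 ± 0.22 (edgeR adjusted p = 0.29). The second catalytic gene, Prkacb, had 112 and 132 CPM in BAT, 119.6 and 127 CPM in iWAT, and 147 and 129 CPM in eWAT, a difference of -0.18 ± 0.17 (edgeR adjusted p = 0.56). Neither catalytic subunit gene was called, and the depots overlapped for Prkacb in BAT and eWAT. Prkaca took 72.4% and 76.5% of the catalytic signal per kilobase in BAT, 69.3% and 68.0% in iWAT, and 63.7% and 68.8% in eWAT. The neuronal type I beta subunit, Prkar1b, ranged from 0.754 to 4.89 CPM.

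**Figure D5:**
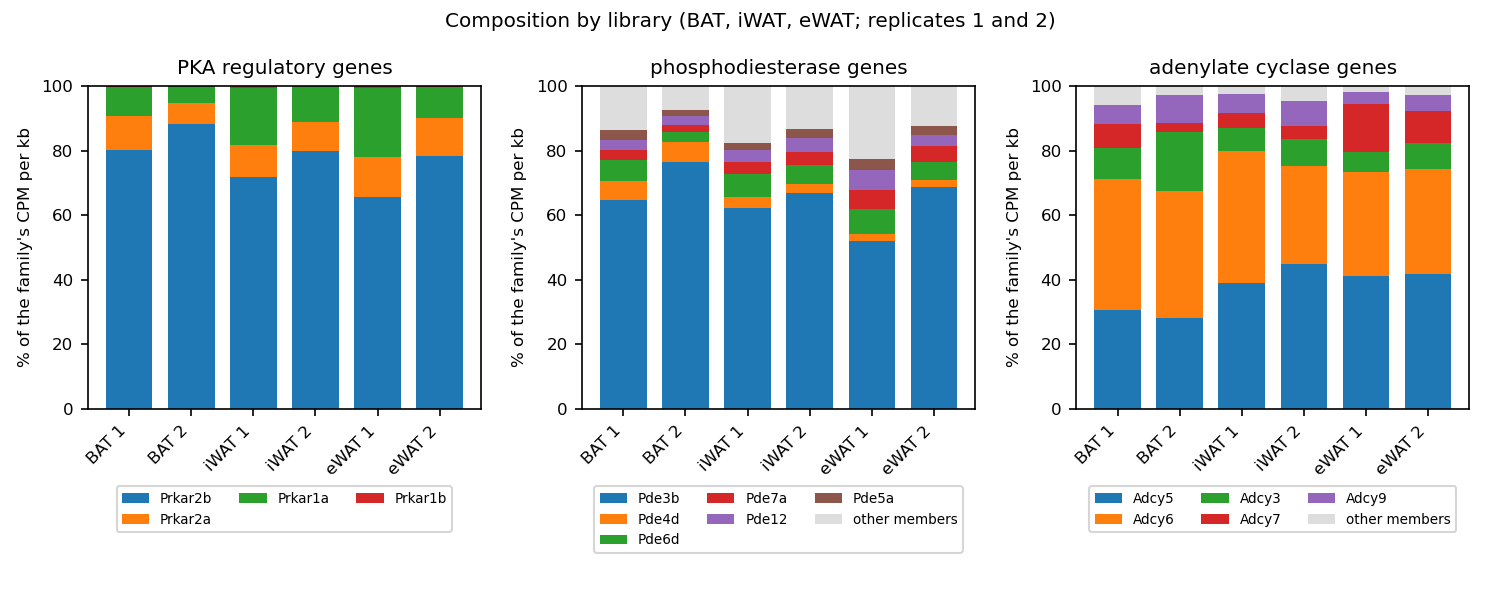
Share of the family's CPM per kilobase (y axis, percent) that each gene takes within the PKA regulatory subunits, the phosphodiesterases and the adenylyl cyclases, 1 stacked bar per library, BAT left of iWAT and eWAT. Prkar2b takes from 65.5% to 88.4% of the regulatory subunits and Pde3b from 52.1% to 76.4% of the genes named as phosphodiesterases, each highest in replicate 2 of BAT.

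The cyclic GMP kinases were scarce. Prkg1, the soluble form, had 39.1 and 20.6 CPM in BAT, 22.4 and 18.6 CPM in iWAT, and 21.9 and 15.4 CPM in eWAT. Its BAT minus eWAT difference was 0.69 ± 0.36 (edgeR adjusted p = 0.29). Cstf2t lies within the Prkg1 locus on the opposite strand, and reads in any counted bases that both share may not be separable. Prkg2, the membrane-bound form, had 16.3 and 4.59 CPM in BAT, 8.66 and 16.3 CPM in iWAT, and 1.63 and 1.99 CPM in eWAT. Both eWAT libraries lay below all others, and BAT and iWAT overlapped. The difference of BAT minus eWAT was 2.56 ± 0.72 (edgeR adjusted p = 0.087; DESeq2 adjusted p = 0.022) and iWAT minus eWAT was 2.77 ± 0.72 (edgeR adjusted p = 0.23; DESeq2 adjusted p = 0.032). Prkg1 stood per kilobase at 1.62 and 3.03 times Prkg2 in BAT, 1.74 and 0.766 times in iWAT, and 9.04 and 5.19 times in eWAT.

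Of the 9 tested anchoring proteins, 0 were called by edgeR in any comparison. Of all tested genes, 2.71% were called higher and 3.75% lower in BAT against eWAT. The shares were 0.145% and 0.895% in BAT against iWAT, and 0% and 0% in iWAT against eWAT. With so few genes, the 0 of 9 was not read as a property of the family. Akap1, which holds PKA at the mitochondrial outer membrane, had 247 and 479 CPM in BAT, 161 and 218 CPM in iWAT, and 113 and 173 CPM in eWAT. Both BAT libraries were above all white fat libraries, and iWAT and eWAT overlapped. It differed by 1.34 ± 0.38 for BAT minus eWAT (edgeR adjusted p = 0.087; DESeq2 adjusted p = 0.013) and by 0.93 ± 0.37 for BAT minus iWAT (edgeR adjusted p = 0.29). Akap12, the scaffold also called gravin, had 270.3 and 209 CPM in BAT, 187 and 187 CPM in iWAT, and 188 and 214 CPM in eWAT, a BAT minus eWAT difference of 0.25 ± 0.19 (edgeR adjusted p = 0.46). Akap7 had 59.6 and 91.0 CPM in BAT, 48.4 and 53.0 CPM in iWAT, and 41.7 and 41.8 CPM in eWAT, ordered without overlap but called by neither edgeR nor DESeq2. The others, Akap2, Akap8, Akap9, Akap10, Akap11 and Akap13, ranged from 38.4 to 232 CPM. Akap3, Akap4, Akap5, Akap6 and Akap14 were not tested: Akap4, an anchor of sperm, was at 0 in all libraries, and the rest had 2 to 36 counts over the 6.

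Across the 46 tested members, complete separation of depots was frequent and near its background. BAT lay above eWAT without overlap for 15 members and below it for 11, where 26.8% and 28.5% of all tested genes did. Against iWAT, BAT was above for 13 and below for 8 (background 23.9% and 24.1%), and iWAT was above eWAT for 12 and below it for 9 (background 19.2% and 18.8%). At an unadjusted p below 0.05, BAT was higher than eWAT for 8 members and lower for 4, against 12.5% and 13.4% of all tested genes. DESeq2 called 4 higher (Akap1, Npr3, Pde4d and Prkg2) and 3 lower (Adcy5, Adcy7 and Npr1) in that comparison, where it called 5.11% and 6.57% of all tested genes.

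In the authors' deposited table, at an adjusted p below 0.05, BAT was higher than eWAT for 10 of the 69 members and lower for 6, where 6.58% and 9.05% of the 20295 genes were. The authors' deposited table had BAT above iWAT for 4 and below it for 3 (2.91% and 5.33% of all genes), and iWAT above eWAT for 6 and below it for 5 (3.25% and 5.27%). Pde4d was higher in both BAT comparisons and in iWAT over eWAT in the authors' deposited table, at log2 values of 2.34, 1.49 and 0.80. Gucy1a3 and Gucy1b3 were both called in BAT against iWAT and in iWAT against eWAT in the authors' deposited table. In BAT against eWAT it also had Akap7, Pde3b and Prkar2b higher and Gucy1a2, Pde1a and Pde3a lower. None of these was called by edgeR or DESeq2 as fitted here. Its other calls in that comparison included Adcy2, Akap6 and Gucy2c as higher, which failed the filter here.

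Between the 2 libraries of a depot, 8 of the 46 members differed by more than 1 log2 unit in BAT, 6 in iWAT and 8 in eWAT, against 12.8%, 8.24% and 9.70% of all tested genes. In BAT, 7 of the 8 were lower in replicate 2 (Adcy4, Adcy7, Gucy1a2, Pde2a, Pde4b, Pde10a and Prkg2), and Adcy3 was higher. The largest spread was that of Gucy1a2 in eWAT, where replicate 2 minus replicate 1 was -2.04 log2 units. The called genes Pde4d and Adcy5 differed by less than 1 unit within each depot.

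Outside the members, a list of 75 genes of the same pathways was examined, of which 56 were tested. In BAT against eWAT, edgeR called 3 of the 56 higher and 2 lower, where 2.71% and 3.75% of all tested genes were. Earlier results of these data were known when the list was chosen, so its counts cannot be weighed against that background. In the other comparisons edgeR called 0 in either direction. The median log2 difference of BAT was -0.14 against eWAT and 0.01 against iWAT, and that of iWAT against eWAT was -0.06. Adrb3, the main beta-adrenergic receptor of rodent adipocytes, fell in BAT relative to eWAT, with 84.1 and 86.4 CPM in BAT, 53.6 and 63.6 CPM in iWAT, and 154 and 172 CPM in eWAT. Its BAT minus eWAT difference was -0.94 ± 0.17 (edgeR adjusted p = 0.036). Both iWAT libraries were the lowest, with BAT minus iWAT at 0.54 ± 0.17 (edgeR adjusted p = 0.20) and iWAT minus eWAT at -1.48 ± 0.17 (edgeR adjusted p = 0.076), neither called. Adora2b, an adenosine receptor coupled to cyclic AMP, also fell relative to eWAT, with 2.11 and 0.765 CPM in BAT, 10.6 and 5.03 CPM in iWAT, and 41.0 and 13.4 CPM in eWAT, a difference of -4.09 ± 0.78 (edgeR adjusted p = 0.039). As for Adcy7, the macrophage markers moved the same way, and their part in the Adora2b difference was not tested. Ffar4, a receptor for long-chain fatty acids, rose to 49.2 and 102 CPM in BAT, against 25.0 and 16.1 CPM in iWAT and 3.03 and 11.4 CPM in eWAT, with a BAT minus eWAT difference of 3.41 ± 0.65 (edgeR adjusted p = 0.038).

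The remaining pair of pathway genes called were Popdc3 and Bves, which encode Popeye domain proteins that bind cyclic AMP. Popdc3 had 13.1 and 13.8 CPM in BAT, 5.53 and 7.29 CPM in iWAT, and 1.16 and 0.569 CPM in eWAT, a BAT minus eWAT difference of 3.87 ± 0.46 (edgeR adjusted p = 0.018). Bves had 35 counts in BAT and 2 in eWAT, a ratio of 18.6 with an exact 95% interval of 4.78 to 159.6 that covers counting error only (edgeR adjusted p = 0.046). They are neighbours on mm9 chromosome 10, 17311 bases apart on the plus strand, with 0 genes of the table between them. Gnas, which encodes the stimulatory G protein, had 694 and 1372 CPM in BAT, 576 and 435 CPM in iWAT, and 495 and 371 CPM in eWAT, above all white fat libraries in BAT, called by DESeq2 but not by edgeR as fitted here (adjusted p = 0.094). Of the 5 calls by edgeR, that of Popdc3 alone was kept with the BAT and eWAT libraries by themselves, and all 5 were lost without replicate 2 of BAT. The PKA substrates in lipolysis were not called: Lipe had 765 and 1094 CPM in BAT and 779 and 1201 CPM in eWAT, and Plin1 had 577 and 785 CPM in BAT and 695 and 1028 CPM in eWAT (edgeR adjusted p = 0.88 and 0.51).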

How the data were processed

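Ribosomal RNA-depleted total RNA was sequenced from 6 adipocyte cultures, 2 each from BAT, iWAT and eWAT. Per the submitters' processing notes, the authors aligned reads with STAR to mouse build mm9, with versions, the counting program, its use of strand and its handling of multiply mapped reads not given in the sources used here. Deposited by the authors was a table of raw counts per gene, not normalized per the file headers, with RefSeq identifiers and mm9 positions, here made 1-based. The authors' deposited second table holds log2 fold changes, log2 values per library, a likelihood ratio score and p-values for each pair of depots, by a tool it does not name; its fold changes and p-values were used only where the text names that table.

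From the counts, genes passing filterByExpr (11732 of 20295) were tested by the edgeR 4.0.16 quasi-likelihood F test in R 4.3.3, two-sided, fitted once to all 6 libraries with depot as the only term, with trimmed-mean scaling and Benjamini-Hochberg adjustment. Standard errors are the absolute log2 difference over the square root of F. Library totals of 2889038 to 4807449 put 3 counts, the limit that a count of 0 allows, at 0.634 to 1.15 CPM; such limits cover counting error only. The spread between libraries of a depot exceeded counting error, with a chi-square of 16.0 to 19.8 per degree of freedom. The script was tested on simulated data. CPM per kilobase uses the counted length given in the table. DESeq2 1.42.0, limma 3.58.1, other scaling and filters, 2 depots alone, a replicate block and leaving out each library were the alternatives.

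Members were matched by symbol. Values by library were given for members called by edgeR or DESeq2 and for a fixed list, and other members by range. Adcy2, Akap7, Gucy1a2, Npr2 and Pde1a were chosen after their values were seen. The members and lists were chosen with earlier results of these data known. Promoters came from RefSeq tables of build GRCm38.p6.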

Additional observations from a re-analysis of the deposited data

How the results depend on the processing

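Each of 37 log2 differences of named members was refitted under 13 alternatives: 417 values kept the call and direction, 40 gained a call, 20 lost one and 4 changed direction. The members called above and below eWAT in BAT, 1 and 2 by the edgeR fit described, were 4 and 3 with DESeq2, 1 and 1 with limma voom, 8 and 3 with no filter, 0 and 0 with the 2 depots alone, and from 0 to 3 and from 0 to 1 on leaving out 1 library, where the lone library of a depot is assumed to vary like the others. Those called above and below iWAT in BAT, 0 and 0, were 2 and 2 with DESeq2, 2 and 2 with no filter, and from 0 to 1 (Npr3, without replicate 1 of eWAT) and 0 on leaving out 1 library. For iWAT against eWAT, 0 and 0 became 2 and 1 with DESeq2 and 3 and 1 with no filter. Relative log expression scaling and a stricter filter gave the same member counts as reported. The fit with no filter took in 68 members and 17699 genes, against 46 and 11732 in the edgeR fit described. Of all tested genes in BAT against iWAT, edgeR as described called 17 above and 105 below. Those became 179 and 331 with DESeq2, and 249 and 531 with no filter. In iWAT against eWAT, 0 and 0 of all tested genes became 113 and 188 with DESeq2, and 204 and 353 with no filter. Under limma voom, the all-gene calls in BAT against eWAT were 242 above and 314 below. Among all tested genes, BAT against eWAT had 318 higher and 440 lower, or 599 and 771 with DESeq2, 769 and 1168 with no filter, 40 and 116 with the 2 depots alone, and from 4 to 415 and from 13 to 414 on leaving out 1 library.

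The labels give every depot replicate numbers 1 and 2 without saying that they mark a shared animal or day. Deviations from depot means of same-numbered libraries correlated at 0.447 (BAT and iWAT), 0.411 (BAT and eWAT) and 0.555 (iWAT and eWAT) across genes. Replicate 2 exceeded replicate 1 in all 3 depots for 14 of the 46 members (25.3% of all tested genes) and fell below it for 9 (23.4%). With the replicate block, 8 members were above and 7 below eWAT in BAT, 3 and 2 above and below iWAT in BAT, and 1 and 3 above and below eWAT in iWAT; all tested genes were then 1276 and 1504, 534 and 691, and 195 and 368. Beside members called by edgeR or DESeq2 in the same comparison, the block called Akap7, Pde3b, Pde5a and Prkar2b above and Akap2, Gucy1a2, Pde1a and Pde3a below eWAT in BAT, Akap1 above iWAT in BAT, and Akap2 and Gucy1a2 below eWAT in iWAT.

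On leaving out 1 library, 3 BAT minus eWAT differences changed sign: Adcy3 ran from -0.15 to 1.01, Adcy4 from -1.35 to 0.082 and Pde10a from -1.06 to 0.44 (0.37 without replicate 2 of eWAT). The cause was not tested.

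For the pathway genes outside the members the same alternatives were added after the data were seen. The fit with no filter tested 74 of these genes, against 56 in the edgeR fit described. The 3 above and 2 below eWAT in BAT were 5 and 5 with DESeq2, 2 and 1 with limma voom (without Bves and Adora2b), 6 and 10 with no filter, 1 and 0 with the 2 depots alone, 9 and 13 with the replicate block, and from 0 to 4 and from 0 to 2 on leaving out 1 library. Against iWAT, 0 and 0 became 0 and 1 with DESeq2, 3 and 2 with no filter and 5 and 2 with the block; in iWAT against eWAT they became 1 and 2 with DESeq2, 3 and 4 with no filter and 1 and 4 with the block.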
